A study of Rattus norvegicus with 6 samples.

Results

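The genes described here encode cytokines and enzymes by which classically activated (M1) macrophages drive inflammation. They are Il1b (ENSRNOG00000004649), Il1a (ENSRNOG00000004575), Il6 (ENSRNOG00000010278), Tnf (ENSRNOG00000055156), Nos2 (ENSRNOG00000011023) and Ptgs2 (ENSRNOG00000002525), 6 genes chosen by their Ensembl identifiers. Of these, 5 were among the 33884 rows of the count table, and 4 had enough reads to be tested, of 12756 genes tested in all. Nos2 was not analysed here, since its identifier matched no row.

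RNA was sequenced from CD45+HIS36+ cells sorted from infarcted cardiac tissue of Sprague Dawley rats, 72 h after the left anterior descending coronary artery had been tied without reperfusion. CD45 marks leukocytes and HIS36 is an antibody against rat macrophages. The comparison was between 3 libraries from WT rats and 3 from Dusp6-/- rats, a homozygous CRISPR/Cas9 line in which an adenine inserted in exon 1 creates an early stop codon. The mutation is carried in the whole body and not in macrophages alone. The methods give young males of matched age for this infarct model. Whether a library came from 1 rat or from a pool is not stated in the sources used here, so p-values measure the spread between these libraries.

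Interleukin-1 alpha and interleukin-1 beta signal through the same receptor, the former released chiefly by damaged cells and the latter after cleavage by caspase-1. Tumor necrosis factor and interleukin-6 spread the inflammatory response to other cells, while inducible nitric oxide synthase (Nos2) and cyclooxygenase-2 (Ptgs2) make nitric oxide and prostaglandin precursors. After infarction, macrophages are among the sources of these mediators in the heart, and their transcripts are induced through NF-kappaB, AP-1 and C/EBP factors.

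The 250 bases before the start of 4 genes are printed here because Il1b and Ptgs2 were the closest pair in their variation between libraries and Il6 and Il1a were more distant from them. The sequences are RefSeq's for GRCr8, a later build than the rn6 used for the counts, and 5 of the 6 genes were matched by symbol. Nos2 was not matched. Each is written 5' to 3' on the strand of its gene. Il1b lies at chr3:137036582-137036831 (minus strand), Il1a at chr3:136990018-136990267 (minus strand), Il6 at chr4:5894576-5894825 (minus strand) and Ptgs2 at chr13:64713813-64714062 (plus strand). Capitals mark matches, on either strand, to an NF-kappaB motif (GGG and CC separated by any 5 bases), an AP-1 motif (TGANTCA), a cyclic AMP response element (TGACGTCA), a C/EBP motif (TTGCNNAA) and a TATA box (TATAAA).

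Il1b: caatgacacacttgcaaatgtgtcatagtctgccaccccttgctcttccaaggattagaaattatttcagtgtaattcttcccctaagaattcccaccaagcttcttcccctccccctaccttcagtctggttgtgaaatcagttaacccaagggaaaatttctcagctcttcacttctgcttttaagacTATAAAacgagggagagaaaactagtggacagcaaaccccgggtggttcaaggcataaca

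Il1a: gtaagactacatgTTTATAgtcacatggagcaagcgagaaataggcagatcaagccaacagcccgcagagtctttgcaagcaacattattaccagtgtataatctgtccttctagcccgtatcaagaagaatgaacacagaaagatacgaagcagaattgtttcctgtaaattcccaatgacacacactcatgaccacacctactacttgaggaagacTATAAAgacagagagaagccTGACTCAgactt

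Il6: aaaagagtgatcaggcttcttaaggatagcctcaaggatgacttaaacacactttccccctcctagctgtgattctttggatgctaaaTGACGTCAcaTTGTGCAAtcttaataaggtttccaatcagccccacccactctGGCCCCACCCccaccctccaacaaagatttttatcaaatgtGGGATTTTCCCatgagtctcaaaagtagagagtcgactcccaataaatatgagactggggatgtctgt

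Ptgs2: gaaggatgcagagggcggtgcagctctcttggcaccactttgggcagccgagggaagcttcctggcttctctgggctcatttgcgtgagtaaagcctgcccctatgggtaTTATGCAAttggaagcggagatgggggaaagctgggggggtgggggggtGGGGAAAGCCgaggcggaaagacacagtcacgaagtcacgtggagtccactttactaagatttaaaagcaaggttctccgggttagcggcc

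Among the 33469 RefSeq windows of this length, 42.3% held the NF-kappaB motif, 6.34% the AP-1 motif, 1.59% the cyclic AMP response element, 9.22% the C/EBP motif and 12.9% the TATA box. In the Il1b window the TATA box began 60 bases before the start and was the single match. The Il1a window held a TATA box from base 32, another on the opposite strand from base 237, and an AP-1 motif from base 12. The Il6 window held the cyclic AMP response element from base 162 and a C/EBP motif on the opposite strand from base 152. It also held NF-kappaB matches from base 109 on the opposite strand and from base 68, the latter overlapping an opposite-strand match from base 67. In the Ptgs2 window a C/EBP motif lay on the opposite strand from base 140 and an NF-kappaB motif from base 91. Tnf, whose sequence is not printed, had an NF-kappaB match on both strands from base 208 and a TATA box from base 46. A match describes the letters of the window and does not show that a factor binds there.

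The WT libraries held 15806508, 16467086 and 12089585 counts in replicates 1, 2 and 3, and the Dusp6-deficient libraries 17274938, 14183096 and 14124625. Levels are given as CPM, read counts scaled to a common library size after TMM normalization. On the first principal component of log2 CPM, Dusp6-deficient replicate 1 (4.48) lay between the WT libraries (-49.7 to -35.9) and the other two Dusp6-deficient libraries (53.5 and 65.0). Without this library the edgeR log2 fold changes of the tested genes were -0.64 for Il1b, 0.34 for Il1a, -1.38 for Il6 and -0.88 for Ptgs2.

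None of the 4 tested genes was called, a call needing an adjusted p under 0.05 together with a log2 fold change beyond 1 in size, although all 4 estimates were below 0. The quasi-likelihood test of edgeR, Benjamini-Hochberg adjusted over all genes, gave 0 genes higher and 0 lower in Dusp6-deficient macrophages. By the same rule 3.47% of all genes tested were called higher in Dusp6-deficient macrophages and 2.16% lower. Of these calls 61.6% were higher, against 49.2% in DESeq2 and 50.2% under upper-quartile scaling. With 1 library left out, this share ran from 7.69% (without WT replicate 2) to 52.8% (without Dusp6-deficient replicate 1). The former fit called only 1 gene higher and 12 lower, the latter 1083 higher and 968 lower. At an unadjusted p under 0.05, 1 of the 4, Ptgs2, was lower in edgeR, against 14.0% of all genes. In DESeq2, which also gave Tnf a p, Il1b, Il6 and Ptgs2 were lower at that unadjusted p. That is 3 of the 5 genes in the table, against 11.1% of the 18721 genes with a p. Over the edgeR alternatives the number lower at that p ran from 0 to 3. It was 0 without WT replicate 1, against 9.90% of all genes in that fit, and 0 without Dusp6-deficient replicate 1, against 21.3%. Without the filter on low counts, where Tnf was tested too, it was 3 of 5, against 10.9% of all genes. Without Dusp6-deficient replicate 3 it was 3, against 9.54%. DESeq2's Wald test called 1 of the 5 genes in the table down-regulated, again Ptgs2, against 5.03% of the 13145 genes to which it gave an adjusted p. Without Dusp6-deficient replicate 1, edgeR called 7.39% of 13103 genes down-regulated and 0 of the genes described here. In the fits without 1 of the 5 other libraries, between 5 and 80 genes were down-regulated, and again 0 of those described here. The median log2 fold change of the 4 was -0.94, against 0.02 over all genes tested, of which 48.6% had an estimate below 0. The value of -0.94 lies between the estimates of Il1b (-0.83) and Ptgs2 (-1.06), which had similar patterns over the 6 libraries. Il1a was at -0.07. The median of the 4 was -0.56 without WT replicate 1, -0.76 without Dusp6-deficient replicate 1 and -1.18 without Dusp6-deficient replicate 2. In each of these fits 3 of the 4 estimates were below 0. The lowest median, -1.31, came without Dusp6-deficient replicate 3, where all 4 estimates were below 0.

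Il1b encodes the secreted form of interleukin-1. It had 504, 197 and 331 CPM in WT replicates 1, 2 and 3 and 123, 246 and 212 CPM in Dusp6-deficient replicates 1, 2 and 3. WT replicate 1 was the highest library and Dusp6-deficient replicate 1 the lowest, and the groups overlapped because WT replicate 2 lay below both of the other two Dusp6-deficient libraries. The mean was 344 ± 154 CPM for WT (SD, n = 3) and 193 ± 63.6 CPM for Dusp6-deficient macrophages (SD, n = 3). The log2 fold change was -0.83 (95% interval -1.67 to 0.0059), with an adjusted p of 0.166 from edgeR's test with Benjamini-Hochberg adjustment. The RNA comes from many cells, so fewer cells that make a transcript and less of it per cell cannot be told apart.

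Ptgs2, the inducible cyclooxygenase, had 36.7, 17.1 and 17.0 CPM in WT replicates 1, 2 and 3 and 7.45, 15.5 and 11.2 CPM in Dusp6-deficient replicates 1, 2 and 3. Every Dusp6-deficient library lay below every WT library, although the highest of the former and the lowest of the latter were close. Ptgs2 was the 1 gene of the 5 in the table without overlap, and 16.3% of all genes tested were lower in this way. Its means were 23.6 ± 11.4 CPM for WT (SD, n = 3) and 11.4 ± 4.03 CPM for Dusp6-deficient macrophages (SD, n = 3). The log2 fold change was -1.06 (95% interval -1.93 to -0.18), and edgeR's test gave an unadjusted p of 0.0231 and a Benjamini-Hochberg adjusted p of 0.107. DESeq2 gave a log2 fold change of -1.10 with a Benjamini-Hochberg adjusted p of 0.0391, while its adjusted p for Il1b was 0.0819 and for Il6 0.106. The call passed both thresholds in 3 of the 6 DESeq2 fits that left out 1 library. It held without WT replicate 2 (log2 fold change -1.29, Benjamini-Hochberg adjusted p 0.0487), without WT replicate 3 (-1.30, 0.0358) and without Dusp6-deficient replicate 2 (-1.36, 0.0356). It was lost without WT replicate 1 (log2 fold change -0.62, Benjamini-Hochberg adjusted p 0.350), without Dusp6-deficient replicate 1 (-0.88, 0.0996) and without Dusp6-deficient replicate 3 (-1.08, 0.154), in the last case with the fold change almost as before.

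Il6 had 10.2, 4.85 and 1.09 CPM in WT replicates 1, 2 and 3 and 0.916, 0.646 and 3.60 CPM in Dusp6-deficient replicates 1, 2 and 3. The counts behind these levels were 172, 84 and 15 in WT and 16, 8 and 45 in Dusp6-deficient macrophages. WT replicate 3 was close to the lower Dusp6-deficient libraries, and Dusp6-deficient replicate 3 exceeded it. The means were 5.39 ± 4.59 CPM for WT (SD, n = 3) and 1.72 ± 1.63 CPM for Dusp6-deficient macrophages (SD, n = 3). The log2 fold change of -1.66 was the lowest of the 4, but its 95% interval ran from -3.56 to 0.24 and the adjusted p was 0.212 with edgeR and Benjamini-Hochberg adjustment. The Il6 estimate was -0.84 without WT replicate 1 and -2.79 without Dusp6-deficient replicate 3. Without Dusp6-deficient replicate 2 it was -1.30 and no longer the lowest, since Ptgs2 was at -1.36 in that fit.

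Il1a, the form of interleukin-1 that acts without cleavage, had 9.74, 3.52 and 3.57 CPM in WT replicates 1, 2 and 3 and 1.60, 2.42 and 12.2 CPM in Dusp6-deficient replicates 1, 2 and 3. The highest library was Dusp6-deficient and so were the lowest, so that the WT values fell inside the Dusp6-deficient range. Its means were 5.61 ± 3.58 CPM for WT (SD, n = 3) and 5.40 ± 5.88 CPM for Dusp6-deficient macrophages (SD, n = 3). The log2 fold change was -0.07 (95% interval -1.76 to 1.62), with an adjusted p of 0.962 from edgeR's test with Benjamini-Hochberg adjustment, which leaves room for a change of over 1 in either direction. The largest move came without Dusp6-deficient replicate 3, the highest library, where the estimate was -1.53. Without WT replicate 1, Dusp6-deficient replicate 1 or Dusp6-deficient replicate 2 it was above 0, at 0.57, 0.34 and 0.26.

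Tnf was close to the limit of detection. It had 10, 6 and 13 counts in WT replicates 1, 2 and 3 and 10, 6 and 4 counts in Dusp6-deficient replicates 1, 2 and 3. The exact Poisson 95% interval ran from 1.09 to 10.2 for the lowest count and from 6.92 to 22.2 for the highest, and covers counting error only. The means were 0.629 ± 0.302 CPM for WT (SD, n = 3) and 0.459 ± 0.128 CPM for Dusp6-deficient macrophages (SD, n = 3). The filter on low counts removed Tnf. In a fit without that filter its log2 fold change was -0.42 (95% interval -2.06 to 1.22), with an adjusted p of 0.761 from edgeR's test with Benjamini-Hochberg adjustment.

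**Figure D1:**
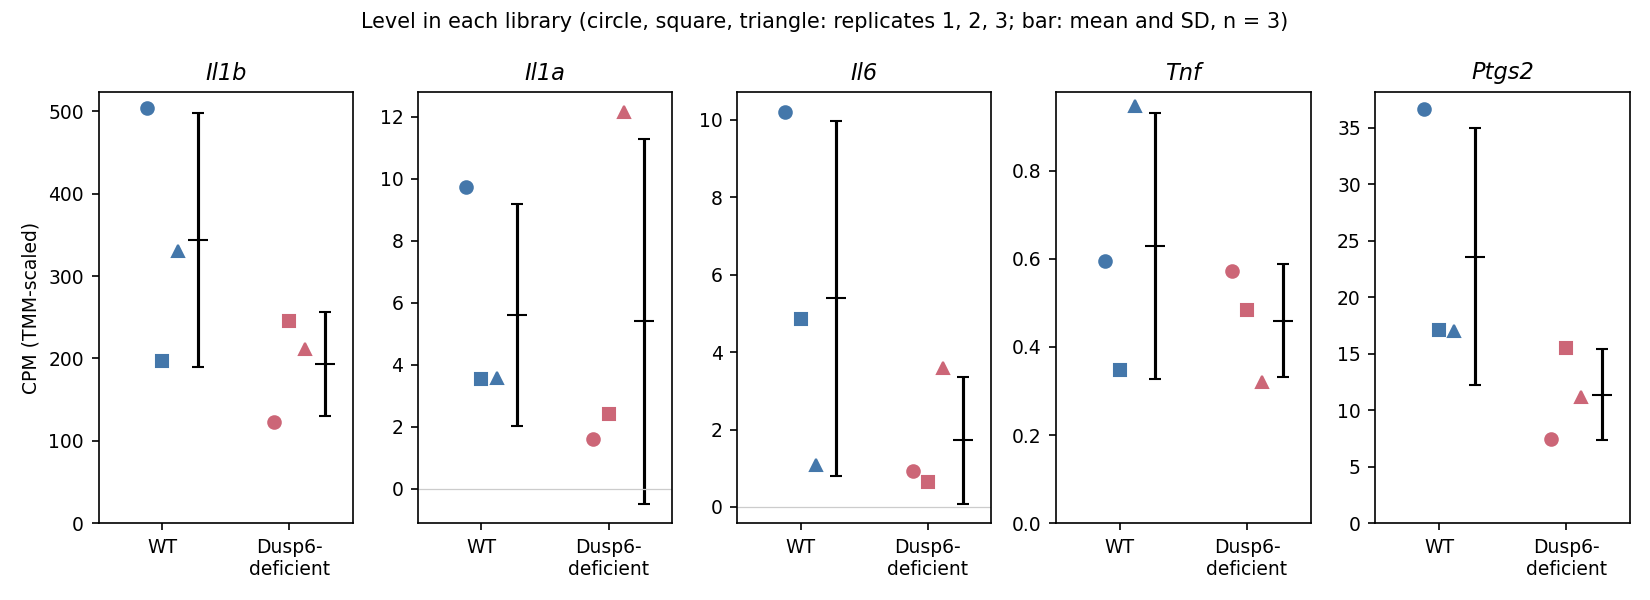
Level of each gene in each library, in CPM after TMM scaling (vertical axis, from or just below 0), by genotype. Symbols are replicates 1, 2 and 3, bars the mean and SD (n = 3); only for Ptgs2 do all Dusp6-deficient libraries lie below all WT libraries.

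**Figure D2:**
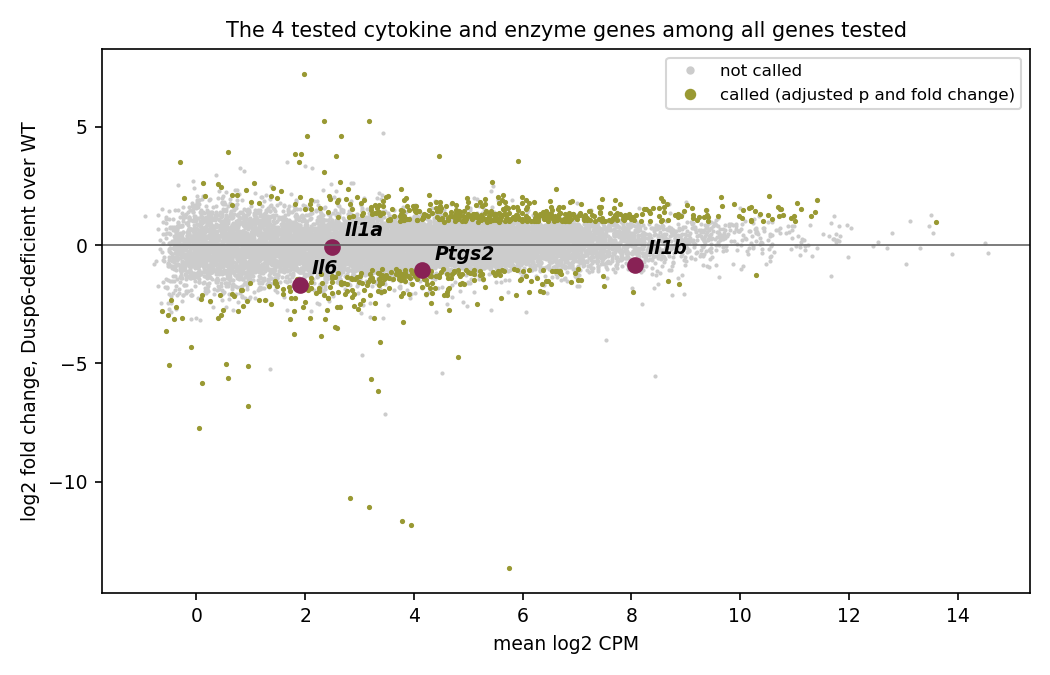
Log2 fold change (Dusp6-deficient over WT) against mean log2 CPM for the 12756 genes tested, one point a gene. Colored points passed both thresholds, and the 4 labelled genes, at -0.83 (Il1b), -0.07 (Il1a), -1.66 (Il6) and -1.06 (Ptgs2), did not.

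WT replicate 1 had the highest level of Il1b, Il6 and Ptgs2, 3 of the 4 tested genes, and was the highest library for 14.7% of all genes tested. Without it the edgeR log2 fold changes were -0.49 for Il1b, -0.84 for Il6 and -0.62 for Ptgs2. The part of this library in the differences beyond these values was not tested.

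**Figure D3:**
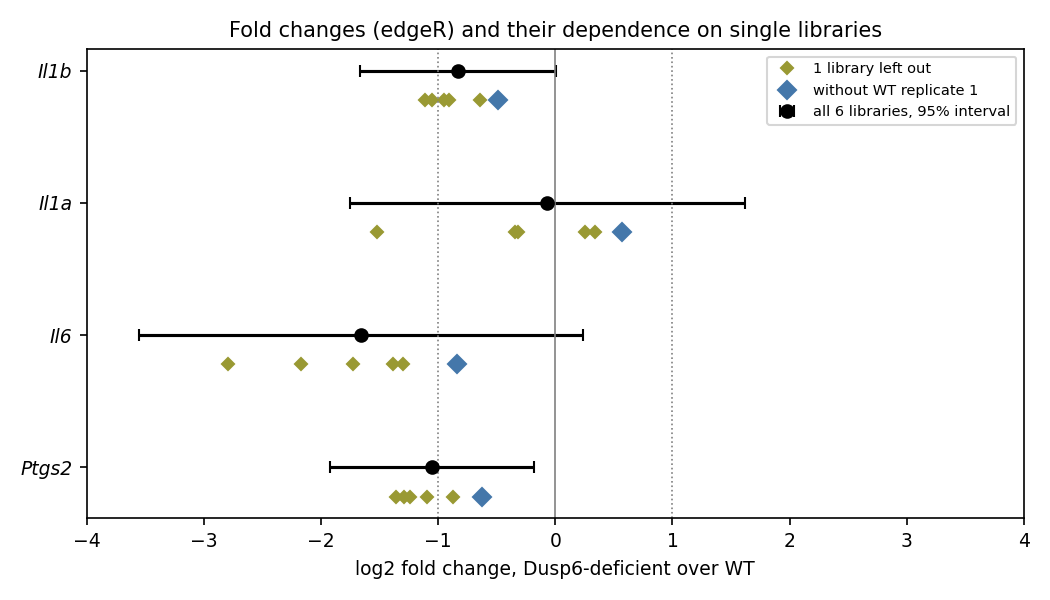
Log2 fold change of the 4 tested genes from edgeR with its 95% interval (black), and the estimate with 1 library left out (diamonds), the larger diamond being the fit without WT replicate 1. Dotted lines mark log2 fold changes of -1 and 1, and the estimates for Il1a fall on both sides of 0.

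Libraries of the same genotype differed more in Il6 and Il1a than in most genes. The biological coefficient of variation, edgeR's estimate of spread within genotype beyond counting error, was 0.679 for Il6 and 0.626 for Il1a, at the 98.6th and 98.0th percentile of all genes tested. Il1b (0.333) and Ptgs2 (0.346) were nearer to the median of 0.286, at the 66.5th and 70.6th percentile. The median and percentiles are over genes of every level and were not matched for abundance. The highest library held 9.35 times the Il6 of the lowest in WT and 5.58 times in Dusp6-deficient macrophages. For Il1a the same range was 2.76 in WT and 7.59 in Dusp6-deficient macrophages, where the medians over all genes tested were 1.41 and 1.66. Single libraries set these ranges. Without WT replicate 1, WT replicates 2 and 3 differed 1.01 times in Il1a. Without Dusp6-deficient replicate 3, the other two differed 1.51 times in Il1a and 1.42 times in Il6, and without WT replicate 3 the other two WT libraries differed 2.11 times in Il6. Counting error was small beside this spread for Il1b, at 2.16% of the value in its lowest library. It was larger for Il1a (18.9%) and Il6 (35.4%).

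**Figure D4:**
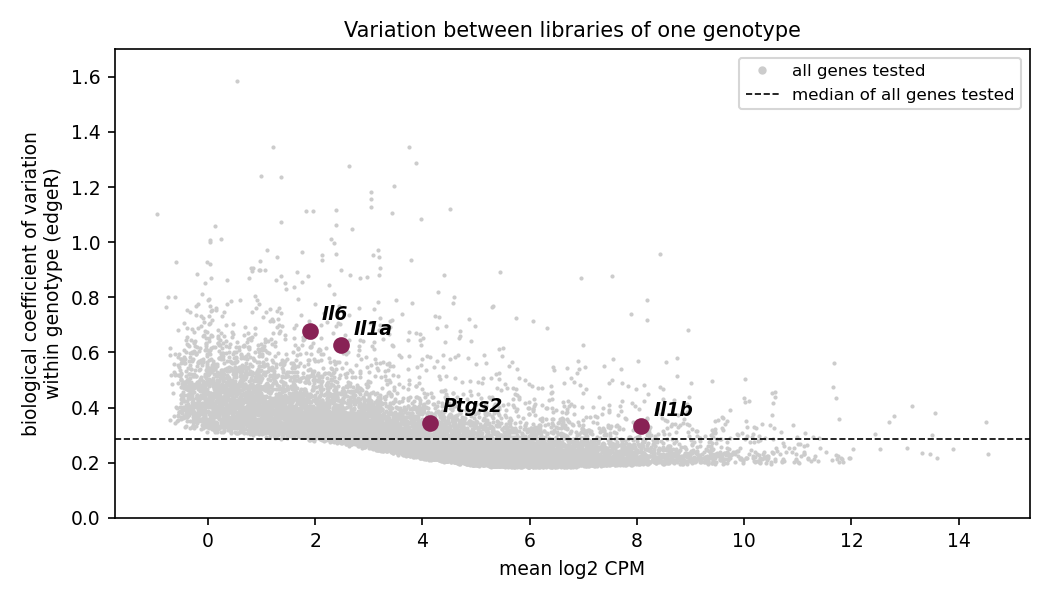
Biological coefficient of variation within genotype (edgeR) against mean log2 CPM for all genes tested, with the median as a dashed line. Il6 (0.679) and Il1a (0.626) lie high at their level. Ptgs2 (0.346) and Il1b (0.333) lie nearer to the median of 0.286, which is over genes of every level.

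Il1b and Ptgs2 had the most similar pattern of the 4 tested genes over the 6 libraries. With each gene's log2 CPM centred on its own mean, their root mean square difference was 0.260, against 0.824 for Il1b and Il1a, 1.18 for Il1b and Il6, and 1.05 for Il6 and Ptgs2. Of 8083 genes compared with Il1b, Ptgs2 was number 10 in closeness, and Il1b was number 11 of those compared with Ptgs2. For every 100 Il1b counts there were 7.28, 8.69 and 5.14 Ptgs2 counts in WT replicates 1, 2 and 3 and 6.08, 6.31 and 5.29 in Dusp6-deficient replicates 1, 2 and 3. The same ratio for Il1a was between 0.987 and 1.93 in 5 libraries and 5.74 in Dusp6-deficient replicate 3. For Il6 it ran from 0.263 in Dusp6-deficient replicate 2 to 2.47 in WT replicate 2. These are descriptions over 6 libraries, in which both genes of a pair are read at the same depth. Of the motifs searched, the printed Il1b window matched only the TATA box, and the Ptgs2 window only the NF-kappaB and C/EBP motifs. The search covered only the listed motifs in short windows, and whether the pair shares regulation was not tested.

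**Figure D5:**
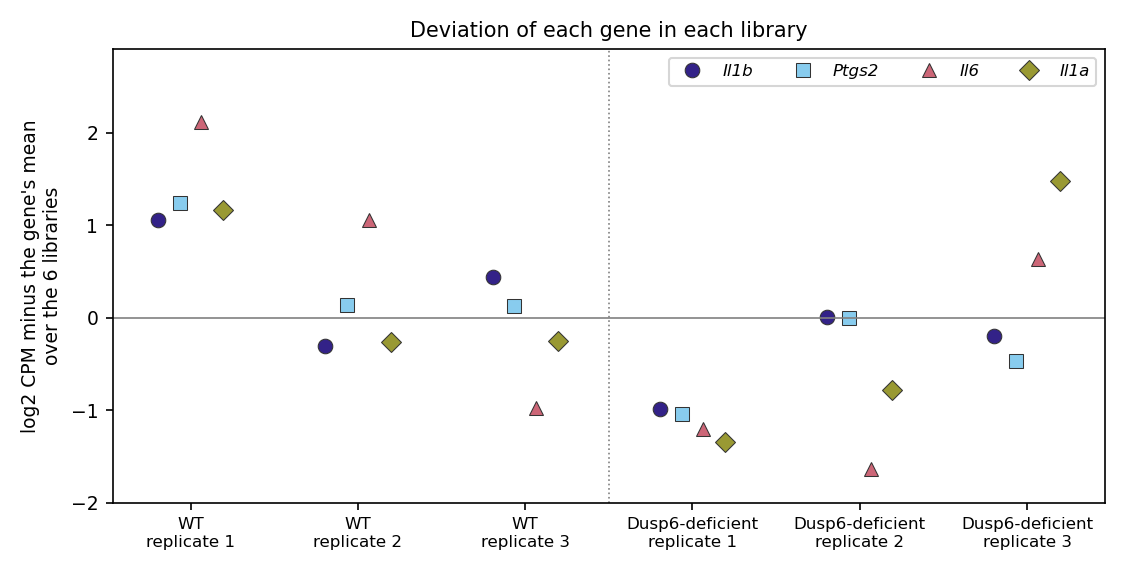
Log2 CPM of each gene minus its mean over the 6 libraries (vertical axis), by library. Over the 6 libraries Il1b and Ptgs2 are the closest pair (root mean square difference 0.260), though they lie on opposite sides of 0 in WT replicate 2 (-0.31 and 0.14). Il1a stands farthest from both in Dusp6-deficient replicate 3.

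The gene closest to Il1b among genes whose log2 CPM averaged 3 or more was ENSRNOG00000033517, at a root mean square difference of 0.0958. Its log2 fold change was -0.95, with an adjusted p of 0.11 from edgeR's test with Benjamini-Hochberg adjustment. The gene closest to Ptgs2 was ENSRNOG00000032708, at 0.165, with a log2 fold change of -1.24 and an adjusted p of 0.0622 from the same edgeR test with Benjamini-Hochberg adjustment. Il6 and Il1a had more distant nearest genes, at 0.275 and 0.595.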

How the data were processed

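The authors deposited raw counts per gene for the 6 libraries. Per the submitters' processing notes, reads were handled with Trim Galore, HISAT2 (build rn6) and featureCounts 1.5.0-p3; the annotation release, strand setting and treatment of multimapping reads are not given in the sources used here. Tests used edgeR 4.0.16 under R 4.3.3 (filterByExpr, TMM, quasi-likelihood test of genotype, Benjamini-Hochberg adjustment over 12756 genes) with thresholds of 0.05 for the adjusted p and 1 for the size of the log2 fold change. Intervals come from the F statistic, and log2 CPM used a prior count of 2. Alternatives were DESeq2 1.42.0, RLE and upper-quartile scaling, no filter on low counts, no fold change threshold, a replicate block and each library left out.

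The members and lists were chosen with earlier results of these data known. The named genes were all 6 members and the nearest gene to each tested member by root mean square difference; identifiers are printed for the neighbours of Il1b and Ptgs2 only, since the files do not pair identifiers with names. Member symbols come from the member list and were not checked against a table. A further 17 lists by symbol, with markers of macrophages and other cell types and Dusp6 itself, were not analysed here, because 0 of 32883 Ensembl identifiers could be paired with a symbol. The genotype of each library and the presence of other cells were therefore not tested.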

Additional observations from a re-analysis of the deposited data

How the results depend on the processing

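The members called by edgeR numbered 0 under RLE and upper-quartile scaling, without the filter on low counts, without a fold change threshold, with the replicate block and without each library in turn; DESeq2 called 1 down-regulated. Over all genes, the main edgeR fit called 442 up-regulated and 275 down-regulated. RLE scaling gave 407 and 296, and upper-quartile scaling 348 and 345. DESeq2 gave 641 and 661, edgeR without the filter 561 and 422, and edgeR without a fold change threshold 708 and 341. With 1 library left out, between 1 and 1083 genes were up-regulated and between 5 and 968 down-regulated, the highest of both without Dusp6-deficient replicate 1, so these counts depend on single libraries. The log2 fold changes without each library ran from -1.11 to -0.49 for Il1b, from -2.79 to -0.84 for Il6, from -1.36 to -0.62 for Ptgs2 and from -1.53 (without Dusp6-deficient replicate 3) to 0.57 (without WT replicate 1) for Il1a, which was above 0 also at 0.34 and 0.26; the cause was not tested. With the replicate block, 298 genes were up-regulated and 188 down-regulated, and the log2 fold changes were -0.78 (Il1b), -0.44 (Il1a), -1.72 (Il6) and -0.998 (Ptgs2). Correlations of 0.106, -0.118 and -0.139 between libraries of the same number gave no sign that the numbers pair them. The DESeq2 fits of Ptgs2 without each library, and the share of genes called without Dusp6-deficient replicate 1, were added after the data were seen, as were the counts at an unadjusted p and the median and ranges without single libraries. Depth limits Tnf most, with 4 to 13 counts a library.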
